A study of Mus musculus with 2 samples.

Results

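The cytochrome P450 genes of the mouse were examined for binding of EP300 in newborn liver. Members were all protein-coding genes of GENCODE release M21 whose symbol starts with Cyp followed by a digit, apart from 4 bile acid genes that the rule leaves out (Cyp7a1, Cyp7b1, Cyp8b1 and Cyp27a1). This gave 96 of 21853 protein-coding genes, with 160 transcription start sites (TSSs) among them. They comprised 3 genes of family Cyp1, 49 of Cyp2, 9 of Cyp3, 20 of Cyp4 and 15 of all other families. The study held 1 group, liver of B6NCrl mice at postnatal day 0 with sex not collected, in which EP300 was mapped by ChIP-seq, the sequencing of DNA pulled down with a protein. It had 2 replicates, which carry the same donor label, so that the spread between them may be technical. Whether that label means 1 animal or pooled animals was unstated. The design has no treated or mutant animals, and the comparison made here is that of the P450 genes with all other protein-coding genes.

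Cytochrome P450 enzymes are haem proteins that insert an oxygen atom into their substrates, drawing electrons from the reductase encoded by Por or, in mitochondria, from ferredoxin. Families 1 to 3 are best known for oxidising drugs and other foreign compounds in hepatocytes, family 4 for hydroxylating fatty acids, and most other families for making or breaking down steroids, sterols, retinoic acid and vitamin D. Many of these genes lie in tandem arrays of recent duplicates, and many are switched on in liver around or after birth. EP300 is a histone acetyltransferase that transcription factors bring to active enhancers and promoters, and its peaks mark such sites.

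The optimal list, which the authors made from both replicates by the irreproducible discovery rate (IDR), placed 26844 peaks on chromosomes 1 to 19, X and Y. Genes were scored by the summit, the highest point of a peak, lying within a stated distance of any of their TSSs. The signal is the authors' value per peak and its scale is not stated, so it ranks peaks within a list only. The list median was 38.3 and the highest peak reached 633. The lists hold no read counts, so the depth of the libraries is unknown. Newborn liver still forms blood. Of marker genes, 4 of 5 for hepatocytes (all but Serpina1a) and 5 of 5 for erythroid cells had a summit within 10 kb. The share was 38.2% of protein-coding genes that were not members. The Clopper-Pearson interval for the hepatocyte markers, 28.4 to 99.5%, holds that share, and that for the erythroid markers, 47.8 to 100%, lies above it. The strongest peak within 10 kb had a signal between 49.3 and 54.8 at the 4 hepatocyte genes and between 43.6 and 390 at the 5 erythroid genes. Peak lists of whole tissue do not show which cells a peak came from. Fewer hepatocytes and less binding per hepatocyte cannot be told apart in whole tissue. The handling of reads that match several copies was unstated, and values at duplicated genes are uncertain for that reason.

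P450 genes had EP300 summits about as often as other genes. Within 10 kb of a TSS, 34 of 96 P450 genes (35.4%, 95% Clopper-Pearson interval 25.9 to 45.8) had a summit, against 38.2% of the 21757 other protein-coding genes, a difference of −2.75 percentage points. Within 50 kb it was 57 of 96 (59.4%, interval 48.9 to 69.3) against 64.4%, a difference of −5.05 points. Both intervals hold the share of the other genes. They cover the counting of genes only, and genes of an array share their surroundings. The difference changed sign with the replicate used. From the highest peaks of replicate 2 alone it was 7.04 points within 10 kb and 2.64 points within 50 kb, and from those of replicate 1 alone it was −7.58 and −2.14 points. When each summit counted only for the gene with the nearest TSS, the difference was 3.69 points within 10 kb and 5.02 points within 50 kb. At the promoter itself, within 1 kb, 14 of 96 P450 genes (14.6%, interval 8.21 to 23.3) had a summit, against 22.3% of other genes.

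**Figure D1:**
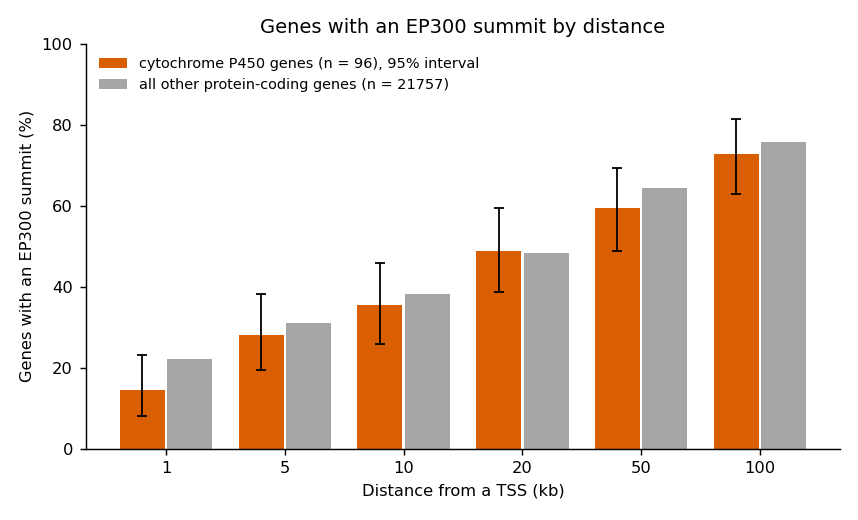
Share of genes with an EP300 summit (y axis, %) within 6 distances of a TSS (x axis, kb), for 96 cytochrome P450 genes (orange, with 95% Clopper-Pearson intervals) and 21757 other protein-coding genes (grey). Each interval holds the other genes' share: P450 genes had 14.6% against 22.3% within 1 kb, 49.0% against 48.3% within 20 kb and 72.9% against 75.7% within 100 kb.

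The distance to the nearest summit varied widely within the family. The nearest summit lay a median of 23.9 kb from a P450 gene's TSS, against 22.3 kb for other genes, but the distances ran between 0.014 kb for Cyp4f13 and 674 kb for Cyp2c39. A total of 26 members (27.1%) had no summit within 100 kb, against 24.3% of other genes. Of the 34 members with a summit within 10 kb, 23 had 1, 8 had 2 and 3 had 3 or more, with the most, 4, at Cyp4f15. Some of these summits belong to overlapping peaks that share a replicate peak, such as those of Cyp4f15 at 1.233 and 1.455 kb. By family, 1 of 3 Cyp1 genes, 14 of 49 Cyp2 genes, 6 of 9 Cyp3 genes, 8 of 20 Cyp4 genes and 5 of 15 genes of other families had a summit within 10 kb, against the 38.2% background. The counts per family are small: the interval for Cyp3 reached 29.9 to 92.5% and that for Cyp2 16.6 to 43.3%. The members nearest to the 10 kb limit were Cyp3a59 (8.90 kb), Cyp2u1 (9.30 kb) and Cyp2s1 (9.68 kb) inside it and Cyp2t4 (11.1 kb), Cyp1a2 (11.9 kb) and Cyp2b10 (13.1 kb) outside it. Of the 46 members in 10 arrays of 3 or more genes, the array of Cyp4a12b to Cyp4b1 had the most with a summit within 10 kb, 5 of 7. That of Cyp2b23 to Cyp2t4 had 3 of 8, that of Cyp4f39 to Cyp4f15 1 of 6, the 5 Cyp2c and Cyp2j arrays together 2 of 18, that of Cyp2d22 to Cyp2d9 2 of 4 and that of Cyp3a41a, Cyp3a44 and Cyp3a11 2 of 3. At 50 kb, Cyp46a1 (36.2 kb), Cyp2a4 (43.2 kb) and Cyp4a30b (43.6 kb) lay inside and Cyp11b1 (50.6 kb), Cyp3a41b (50.6 kb) and Cyp4f16 (53.1 kb) outside.

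**Figure D2:**
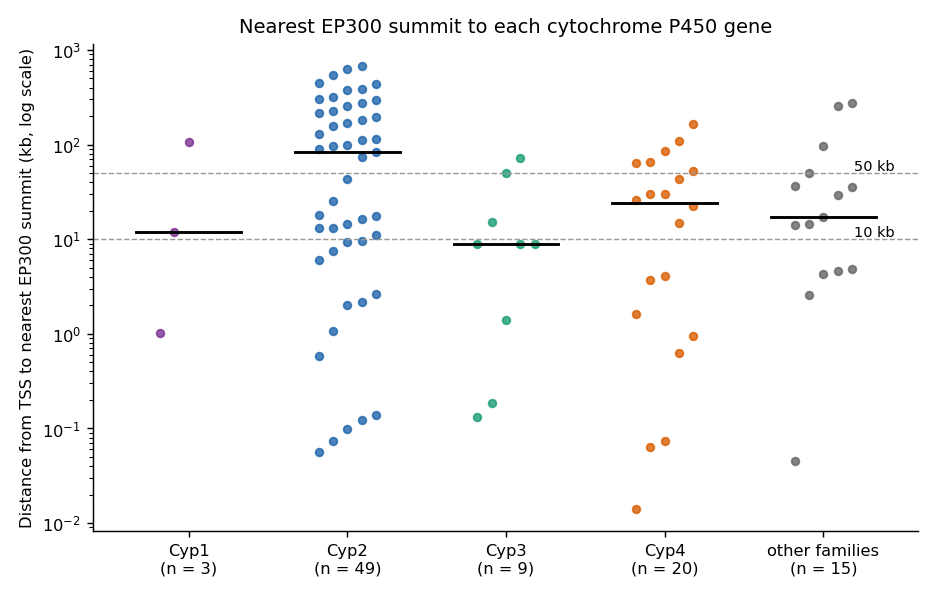
Distance between the TSS and the nearest EP300 summit (y axis, kb, log scale) for each of the 96 genes by family (x axis). Each point is 1 gene, black lines are family medians, and dashed lines mark 10 and 50 kb. Cyp2 genes spread between 0.056 and 674 kb with a median of 82.9 kb, while the median was 8.81 kb for Cyp3 and 24.4 kb for Cyp4.

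Near the P450 genes lay 49 peaks within 10 kb, each next to 1 member only, and in all 49 cases the nearest protein-coding TSS was that of the member. Of these summits, 16 (32.7%) lay within 1 kb of a TSS, 15 in introns and 18 between genes. At promoters lay 44.5% of the 12577 peaks within 10 kb of other genes and 20.9% of all 26844 peaks, most of which are further from any gene. Their signal was moderate, with a median of 33.3 (range 7.83 to 137) against 38.3 for the whole list. Taking the strongest peak per gene, the median was 43.7 over the 34 members (quartiles 32.1 and 83.6) and 49.4 over 8304 other genes (quartiles 32.7 and 84.5). The strongest peak stood at the 91.6th percentile of the list for Cyp4, the 89.3rd for Cyp2, the 87.5th for other families, the 84.1st for Cyp3 and the 19.2nd for Cyp1. The Cyp1 value turned on the replicate, with 9.26 without replicate 1 and 51.1 without replicate 2. Without replicate 1 the order of Cyp3 (87.5) and other families (85.6) turned round.

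The Cyp4a genes, whose enzymes hydroxylate fatty acids at the chain end and are textbook targets of the receptor PPARA in rodent liver, held the 2 strongest peaks within 10 kb of any P450 gene. Upstream of Cyp4a10, at −4.12 kb, a peak had a signal of 137 in the optimal list, 90.4 in the list of replicate 1 and 45.0 in that of replicate 2. The peak of Cyp4a32 at −3.95 kb reached 128, with 77.8 and 50.4 in replicates 1 and 2. Cyp4a14 had a peak of 109 at −1.56 kb (70.2 and 42.1 in replicates 1 and 2) and a weak one of 23.3 at its promoter, and Cyp4a31 had one of 79.3 at −7.96 kb (49.2 and 29.3) and one of 32.2 inside the gene at 0.960 kb. All 4 main peaks ranked among the highest 5527 of each replicate's 299855 peaks. Between Cyp4a31 and Cyp4a32, 17.7 kb upstream of the second, lay a peak of 286 (170 and 115 in replicates 1 and 2), above every peak within 10 kb of a member. Cyp4a12b, at the other end of the array, and Cyp4a29 and Cyp4a12a beyond it had no summit within 50 kb.

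**Figure D3:**
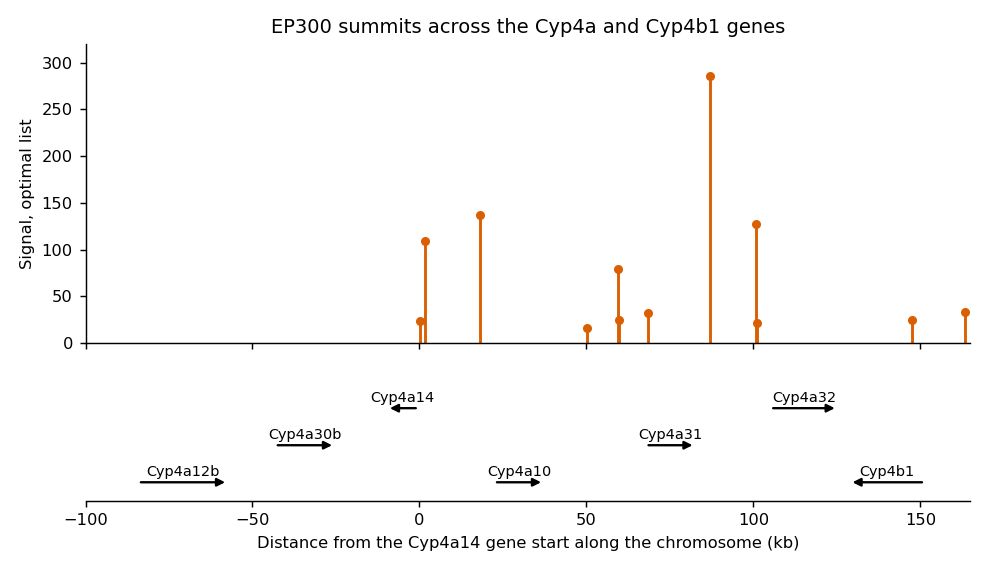
EP300 summits of the optimal list (upper panel, signal, height of each line) and the genes Cyp4a12b to Cyp4b1 (lower panel, arrows in the direction of transcription), by distance from the Cyp4a14 gene start (x axis, kb). The tall lines stand just upstream of Cyp4a14, Cyp4a10, Cyp4a31 and Cyp4a32, the tallest, 286, lies between the last pair, and the stretch holding Cyp4a12b and Cyp4a30b has none.

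The peaks upstream of Cyp4a10, Cyp4a31 and Cyp4a32 lay on copies of the same sequence. Over 401 bases the copies matched that of Cyp4a10 at 88.8% of aligned positions for Cyp4a31 and 94.5% for Cyp4a32. The central stretches are printed to show how little the 3 differ, on the sense strand of each gene, with bases that differ from Cyp4a10 in capitals (4 in each of the other two, besides 1 base fewer). They lie at chr4:115514098-115514198, chr4:115555699-115555798 and chr4:115596939-115597038 (GRCm38, sequence from the RefSeq genome).
Cyp4a10: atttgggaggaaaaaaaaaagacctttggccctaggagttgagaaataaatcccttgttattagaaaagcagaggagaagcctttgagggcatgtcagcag
Cyp4a31: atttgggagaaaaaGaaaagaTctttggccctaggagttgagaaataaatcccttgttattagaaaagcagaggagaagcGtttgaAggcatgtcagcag
Cyp4a32: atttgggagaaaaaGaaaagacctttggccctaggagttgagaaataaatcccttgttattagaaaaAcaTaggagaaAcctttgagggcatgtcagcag
Of the 31-base words in these copies, 61.7% occur once in the genome for Cyp4a10, 74.1% for Cyp4a31 and 76.8% for Cyp4a32. The remaining words also occur at other places, in these copies or elsewhere in the genome. The part of reads from such words in the 3 peaks was not tested.

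In the rest of family 4, Cyp4f13 and Cyp4f15, of a subfamily that hydroxylates leukotrienes and long fatty acids, had promoter peaks. That of Cyp4f13, at −0.014 kb, had a signal of 87.6 (68.0 and 19.2 in replicates 1 and 2), and that of Cyp4f15, at −0.064 kb, 56.4 (39.2 and 17.6). These were the only members of 9 Cyp4f genes with a summit within 10 kb. Cyp4f14 had its nearest summit at 30.1 kb, and Cyp4f17, Cyp4f16, Cyp4f37 and Cyp4f40 lay together in a stretch of 202 kb without any. Cyp4x1 (24.1, at 0.625 kb) and Cyp4b1 (24.3, at −1.63 kb) had weak peaks, and the summit nearest to Cyp4v3 lay at 29.9 kb.

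Family 3 consists of the Cyp3a genes, whose enzymes oxidise steroids and many drugs. Cyp3a11, the main form of adult mouse liver, had its strongest peak upstream, at −1.41 kb, with a signal of 87.5 (55.4 and 32.5 in replicates 1 and 2). Cyp3a13, which stands apart from the array, had 84.8 at its promoter (46.4 and 36.2). Cyp3a44 had 36.6 at its promoter (20.5 and 17.0). Cyp3a25, Cyp3a59 and Cyp3a57 had peaks between 8.80 and 8.90 kb from their TSSs, with signals of 44.8, 32.4 and 30.5. Just past the 10 kb limit, at −11.7 kb from Cyp3a25, lay the highest peak within 50 kb of any Cyp3 gene, 114 (79.4 and 36.2 in replicates 1 and 2). Cyp3a16, the form best known from fetal and newborn liver, had no summit within 10 kb and its nearest at 15.1 kb inside the gene (58.5, with 40.1 and 18.2 in replicates 1 and 2). Cyp3a41a and Cyp3a41b had none within 50 kb.

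The summit inside Cyp3a16 fell on an intronic sequence that 4 other members carry at a similar place, 12.3 to 12.6 kb from their TSSs. The copies of Cyp3a44 and Cyp3a11 also held a summit, with signals of 53.2 (38.8 and 15.03 in replicates 1 and 2) and 23.7 (12.3 and 9.48). Those of Cyp3a41a and Cyp3a41b held none, and no peak of either replicate list touched them. The central stretches are printed for that contrast, on the sense strand, with bases that differ from Cyp3a16 in capitals. They lie at chr5:145454531-145454631 (Cyp3a16), chr5:145793361-145793461 (Cyp3a44), chr5:145867573-145867673 (Cyp3a11), chr5:145707500-145707600 (Cyp3a41a) and chr5:145572086-145572186 (Cyp3a41b).
Cyp3a16: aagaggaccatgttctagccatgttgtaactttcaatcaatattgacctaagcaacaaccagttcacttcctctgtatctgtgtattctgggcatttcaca
Cyp3a44: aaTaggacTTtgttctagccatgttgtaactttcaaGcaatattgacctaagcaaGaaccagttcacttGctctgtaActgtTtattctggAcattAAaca
Cyp3a11: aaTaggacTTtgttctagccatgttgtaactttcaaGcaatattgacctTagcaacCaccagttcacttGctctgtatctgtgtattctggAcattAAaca
Cyp3a41a: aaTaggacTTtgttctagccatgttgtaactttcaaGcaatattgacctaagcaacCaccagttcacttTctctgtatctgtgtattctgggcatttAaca
Cyp3a41b: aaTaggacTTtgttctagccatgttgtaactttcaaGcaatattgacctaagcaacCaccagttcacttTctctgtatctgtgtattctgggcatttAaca
Each copy without a peak differs from Cyp3a16 at 7 of 101 bases, fewer than Cyp3a44 (11) and Cyp3a11 (10), and the 2 are identical to each other in this stretch. Of their 31-base words, 9.02% (Cyp3a41a) and 10.1% (Cyp3a41b) occur once in the genome, against 99.2%, 68.1% and 67.3% in Cyp3a16, Cyp3a44 and Cyp3a11. The part of that repetition in the missing peaks was not tested.

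Further pairs of duplicates each held a peak on the same sequence. The summits of Cyp3a25 at −8.80 kb and Cyp3a59 at −8.90 kb lay on copies 93.9% identical over 410 aligned positions. The promoter peaks of Cyp2a22, at −0.074 kb (42.7, with 30.3 and 11.3 in replicates 1 and 2), and of Cyp2a12, an enzyme that hydroxylates steroids and bile acids, at −0.122 kb (32.4, with 21.2 and 10.7), lay on copies 90.9% identical over 416 positions. In each of these pairs both summits sat at nearly the same distance from the TSS. The stretches before the start sites of the Cyp2a pair, chr7:26939404-26939504 and chr7:27028961-27029061, show 7 differences, in capitals.
Cyp2a22: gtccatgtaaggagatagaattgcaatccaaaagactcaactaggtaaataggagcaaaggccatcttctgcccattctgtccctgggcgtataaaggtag
Cyp2a12: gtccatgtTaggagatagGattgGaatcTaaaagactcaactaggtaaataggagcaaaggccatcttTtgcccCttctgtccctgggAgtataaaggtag
The other Cyp2a genes, Cyp2a4 and the coumarin hydroxylase gene Cyp2a5, had their nearest summits at 43.2 and 98.5 kb, and 37.9% and 37.0% of the 31-base words within 10 kb of their TSSs occur once in the genome.

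**Figure D4:**
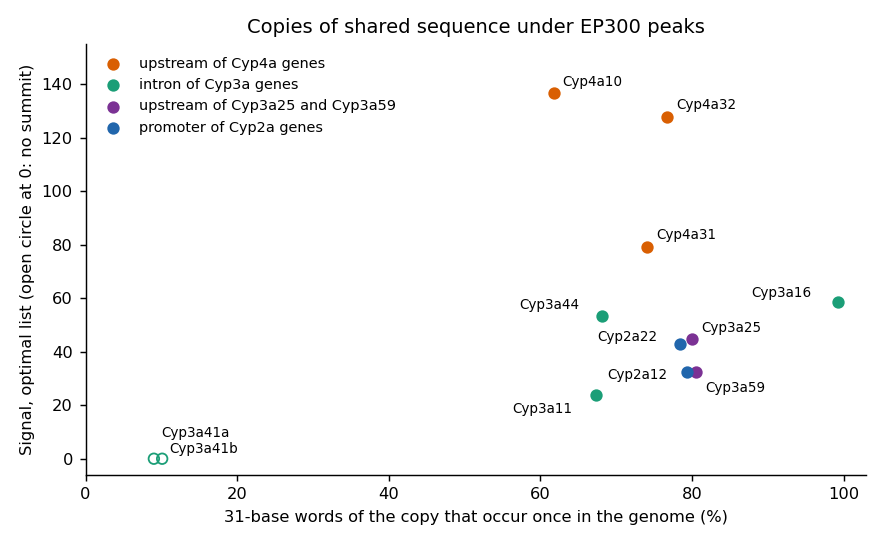
Signal in the optimal list (y axis) against the share of 31-base words of the copy that occur once in the genome (x axis, %) for 12 copies of 4 sequences under EP300 peaks of duplicated P450 genes, coloured by sequence. The open circles at the lower left are the copies of Cyp3a41a and Cyp3a41b, which hold no summit and have 9.02% and 10.1% of such words. Every copy with a summit has 61.7% or more. The sequences were chosen because peaks of different members lay on them, so the figure cannot show how summits depend on such words.

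Family 2, the largest, had a summit within 10 kb at 14 of its 49 genes (28.6%). The interval, 16.6 to 43.3%, holds the 38.2% of other protein-coding genes. Cyp2c23, an epoxygenase of arachidonic acid that lies apart from the other Cyp2c genes, had the strongest peak of the family, inside an intron at 7.43 kb, with a signal of 116 (74.4 and 40.2 in replicates 1 and 2). The array of the other 14 Cyp2c genes, among them Cyp2c29, a major form of adult mouse liver, was nearly bare. A stretch of 1351 kb (chr19:38836522-40187385) held no summit until that of the Cyp2c70 promoter at its end, at −0.099 kb with a signal of 33.3 (14.0 and 18.7). Cyp2c70 makes muricholic acids, and 13 of the 14 genes had no summit within 10 kb. This was the 291st longest of 26824 stretches between neighbouring summits, whose median was 15.96 kb. The replicate lists, which reach far weaker peaks, had 92 and 77 peaks in it (replicates 1 and 2), or 6.82 and 5.71 per 100 kb against 11.0 per 100 kb over all chromosomes. Of its 31-base words, 58.3% occur once in the genome.

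The Cyp2j array, 8 epoxygenase genes, was similar. A stretch of 819 kb (chr4:95846707-96665233) ended at a peak 1.08 kb upstream of Cyp2j5 (32.1, with 15.7 and 16.03 in replicates 1 and 2), and the other 7 genes had no summit within 10 kb. Here the replicate lists were not thin, with 9.55 and 10.04 peaks per 100 kb, and 77.0% of the 31-base words occur once. On chromosome 7, a stretch of 589 kb (chr7:26350330-26939454) that holds Cyp2b23, Cyp2b19, Cyp2g1 and Cyp2a5 and ends at the Cyp2a22 promoter had no summit inside it, and these 4 genes had none within 10 kb.

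Other Cyp2 genes did have close peaks. Cyp2f2, which oxidises naphthalene, had one of 79.8 in an intron at 2.61 kb (47.3 and 30.3 in replicates 1 and 2). Cyp2d22, a drug-oxidising Cyp2d form, had 3 summits in reach, the highest 69.3 at −0.576 kb (45.3 and 19.3). Of the 8 Cyp2d genes 4 had a summit within 10 kb, and Cyp2d26 had one at its promoter, at −0.140 kb with a signal of 29.3 (20.1 and 11.9). Cyp2e1, which oxidises ethanol and small solvents and is switched on in liver after birth, had 39.5 at its promoter, at −0.056 kb (29.8 and 9.49), and 33.2 at −7.02 kb. Cyp2u1 had 53.7 at −9.30 kb (40.3 and 11.4) and Cyp2s1 19.9 at 9.68 kb, the lowest strongest peak of the 34 members. Cyp2b10, the textbook target of the receptor CAR, had its nearest summit at 13.1 kb (34.3). Cyp2r1, a vitamin D hydroxylase, had none within 50 kb.

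In family 1, Cyp1a1, the textbook target of the aryl hydrocarbon receptor AHR, had 1 summit at −1.03 kb with a signal of 24.1. It matched a peak of 26.9 in replicate 1 and none in replicate 2, and it was the 1 peak of the 49 that did not overlap a peak in both lists. The wider surroundings of Cyp1a1 and its liver-enriched neighbour Cyp1a2 held stronger summits: 11 lay within 50 kb of Cyp1a2, with the highest, 140, inside the gene Edc3. Cyp1b1, which acts mainly outside the liver, had its nearest summit at 105.2 kb.

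Among the remaining families, Cyp17a1, which makes androgen precursors, had the strongest peak, 104 in an intron at 4.57 kb (71.4 and 32.6 in replicates 1 and 2). Cyp39a1, an oxysterol hydroxylase, had 87.9 in an intron at 4.62 kb (65.0 and 19.2). Cyp26a1, which breaks down retinoic acid, had 54.1 at 4.88 kb (36.2 and 19.1), and the adrenal steroid hydroxylase gene Cyp21a1 45.2 at −4.27 kb (29.6 and 16.1). Cyp51, the lanosterol demethylase of cholesterol synthesis and the 1 promoter case among these families, had 35.7 at 0.045 kb (27.6 and 9.12). Other well-known genes of these families had no summit within 10 kb. The nearest lay at 95.5 kb for Cyp11a1, which starts steroid synthesis, 274 kb for the aromatase gene Cyp19a1 and 36.2 kb for the brain cholesterol hydroxylase gene Cyp46a1, and for the vitamin D genes Cyp24a1 and Cyp27b1 at 14.2 and 14.5 kb.

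**Figure D5:**
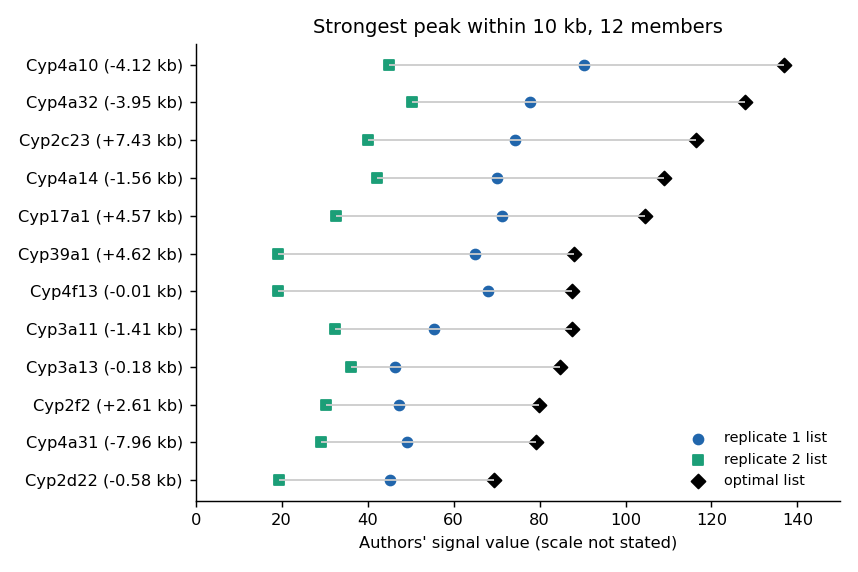
Signal of the strongest peak within 10 kb (x axis, authors' value with no stated scale) for the 12 members with the highest, in the list of replicate 1 (blue circles), replicate 2 (green squares) and the optimal list (black diamonds). The distance from the TSS stands beside each gene. Each gene has a peak in both replicates, with 90.4 in replicate 1 and 45.0 in replicate 2 at Cyp4a10, and values of different lists may differ in scale.

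The peaks near P450 genes recurred between the replicates about as often as all peaks. Of the 49, 35 (71.4%, interval 56.7 to 83.4) lay on a peak within the highest 26844 of both replicates, against 67.9% of all optimal peaks. The authors' conservative list, with 23673 peaks against 26844 in the optimal list, also held 38 of the 49. How many of all optimal peaks it held was not counted, so that count has no background beside it. Across the 48 peaks matched in both lists, the signals of the replicates had a Spearman correlation of 0.63 and a Pearson correlation of log2 values of 0.73. The points share their libraries and some share a replicate peak, so no p-value is given.

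Most short consensus sequences were found about as often under the P450 summits as in the list as a whole, and the GATA letters at a lower share. The summit with 50 bases on each side was searched on both strands for consensus sequences of liver and blood factors, whose matches may overlap. AGATAA, the letters bound by GATA factors, was found in 2 of 49 windows near P450 genes (4.08%, interval 0.498 to 14.0), against 18.2% of the 12577 peaks within 10 kb of other genes and 22.3% of all peaks. Within 50 kb it was 7 of 139 (5.04%). TGTTTNC (FOXA factors) was found in 7 of 49 (14.3%) against 13.2% of all peaks, TTGCNNAA (CEBP factors) in 3 (6.12%) against 8.93%, TGACNNNGC (NRF2) in 2 (4.08%) against 5.58%, TTCNNNGAA (STAT factors) in 2 (4.08%) against 4.95%, TNGCGTG (AHR) in 1 (2.04%) against 1.43%, and CAAAGTCCA or CAAAGGTCA (HNF4 factors) in 1 (2.04%) against 1.37%. GTTAATNAT (HNF1), TCACNCCAC (SREBP), TCAAGGTCA (NR5A2) and direct repeats of AGNTCA spaced by 1, 3, 4 or 5 bases (nuclear receptors) were in none of the 49, and in 0.0522 to 0.455% of all peaks. In 34 of 49 windows none of these was present, and of the windows under the 12 strongest members 3 held any. Windows without any match were not counted over all peaks, so these counts have no background beside them. The 49 windows had a median GC content of 43.6%, against 47.5% over all peaks. A match names no bound protein, and motifs of other letters were not searched.

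Some windows with a match are printed as examples of what was found where, on the sense strand of the gene, with the match in capitals and exon bases left off. Cyp2c23 (chr19:44021725-44021823) is shown as the strongest peak of family 2 and holds TTGCNNAA, Cyp2u1 (chr3:131312471-131312571) holds TGTTTNC, the Cyp2c70 promoter (chr19:40187335-40187435) holds AGATAA and CAAAGTCCA, and the window of Cyp1a1 (chr9:57696538-57696638), the AHR target, holds TNGCGTG at 2 places, 1 of them on the other strand.
Cyp2c23: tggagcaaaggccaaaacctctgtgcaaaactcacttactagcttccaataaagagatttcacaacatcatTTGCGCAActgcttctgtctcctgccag
Cyp2u1: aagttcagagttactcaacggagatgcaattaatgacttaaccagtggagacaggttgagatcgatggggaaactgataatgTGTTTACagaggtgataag
Cyp2c70: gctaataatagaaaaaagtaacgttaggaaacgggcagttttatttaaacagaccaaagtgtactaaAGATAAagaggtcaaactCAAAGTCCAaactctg
Cyp1a1: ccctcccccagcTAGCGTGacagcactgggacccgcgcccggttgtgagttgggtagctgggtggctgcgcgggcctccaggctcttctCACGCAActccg

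Genes that serve or control the P450 enzymes were counted in the same way. Of 9 genes for electron donors and haem supply, 7 (77.8%, interval 39.99 to 97.2) had one within 10 kb, against the 38.2% background. Por, the reductase that feeds every microsomal P450, had the strongest, 189 in an intron at 6.25 kb (126 and 61.6 in replicates 1 and 2). Cyb5r3, the reductase of cytochrome b5, had 131 (82.8 and 51.4), Fdxr, the ferredoxin reductase, 101 (62.2 and 38.1) and Cyb5a, cytochrome b5 itself, 85.1 (50.6 and 31.3). The ferredoxin gene Fdx1 and Alas1, which starts haem synthesis, had none within 10 kb. Of 18 regulators, 15 (83.3%, interval 58.6 to 96.4) had one. The strongest stood at Srebf2, a regulator of sterol genes (148, with 110 and 33.7), Rxra, the partner of many nuclear receptors (128, with 78.7 and 47.1), Hnf4a (99.0, with 67.0 and 32.8) and Bcl6 (93.4, with 57.6 and 36.4). The genes for the drug-sensing receptors, Nr1i3 (CAR) and Nr1i2 (PXR), had 58.3 and 52.0, Ppara had 55.8 and Cebpa 47.9, while Ahr, its repressor gene Ahrr, and Cux2 had no summit within 10 kb. Of 64 conjugation enzymes, which act on the products of P450 enzymes, 25 (39.1%, interval 27.1 to 52.1) had one: 14 of 22 glutathione transferases, 6 of 21 sulfotransferases, and 2 of 9 Ugt1, 3 of 10 Ugt2 and 0 of 2 Ugt3 glucuronosyltransferases. These lists were chosen with results of these data known, and no test of them was made.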

How the data were processed

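EP300 ChIP-seq peak lists on mm10 were used, 1 per replicate and 2 IDR lists. The authors called peaks against a control alignment, per the file headers. Not given in the sources used here are the aligner, caller, threshold and tool versions. The deposited signal value of each peak (column 7) has no stated scale, and the deposited score of the IDR lists (column 5) was read but not used. Peaks outside chromosomes 1 to 19, X and Y were dropped, leaving 26844 of 26883 optimal peaks and 299855 of 300000 in each replicate list. The list called on both replicates together was not used. Summits were set against TSSs of protein-coding transcripts in GENCODE M21; 85 protein-coding genes with no such transcript were left out. Coordinates are 1-based.

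The 96 members and all lists were chosen with earlier results of these data known, so no list was tested. Shares have 95% Clopper-Pearson intervals, for counting error only. Replicate peaks matched by an overlap of at least 1 base. Named genes were those with a summit within 1 kb, the 12 with the strongest peak, the strongest per family, those next to the 10 kb limit, well-known members, arrays of 3 or more genes with TSSs within 100 kb of the next, and partner or regulator genes above the median member. Genes next to the 50 kb limit, Cyp2c39, Cyp4a12a and Cyp4a29, the other named Cyp3a and Cyp4f genes, Cyp2a4, the named Cyp2b and Cyp2g genes of the stretch without summits, Cyp1a1's neighbour Edc3 and the motif examples were named after their values were seen. Copies of a peak's sequence were found by local alignment (Biopython 1.88) of 401 bases around the summit to the members' surroundings, taken from 200 aligned positions at 80% identity. Only sequences on which peaks of different members lay were searched for copies. Words of 31 bases were counted over the genome on both strands. Steps were checked on simulated data with planted answers. Alternatives were other lists, replicates, distances, TSS rules and windows. Python 3.11.15, numpy 2.4.6, pandas 2.3.3 and scipy 1.17.1 were used.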

Additional observations from a re-analysis of the deposited data

How the results depend on the processing

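No paired analysis was possible because there is 1 group. Leaving out a replicate moved the share of P450 genes with a summit to 33.3 to 44.8% within 10 kb and 63.5 to 67.7% within 50 kb. The difference to other genes ran between −7.58 and 7.04 points within 10 kb and −2.14 and 2.64 points within 50 kb, and was 3.69 and 5.02 points with the nearest TSS only and 0.670 points within 20 kb. The cause was not tested. Shares followed the distance by construction, with 14.6% within 1 kb, 49.0% within 20 kb and 72.9% within 100 kb. The top 50% of peaks gave 19.8% within 10 kb and 44.8% within 50 kb, and the nearest TSS only 45.8% within 50 kb. Counting 50 loci once gave 48.0% and 70.0%. That alternative was not run for the differences, since other genes were not merged into loci. Leaving out a replicate put the strongest peak at percentile 9.26 to 51.1 for Cyp1, 88.7 to 89.2 for Cyp2, 82.8 to 87.5 for Cyp3, 91.7 to 92.0 for Cyp4 and 85.6 to 88.0 for other families. The conservative list gave 87.8 for Cyp2 and 90.4 for Cyp4, and the top 50% gave 78.6, 68.2, 83.1 and 75.05 for Cyp2, Cyp3, Cyp4 and other families, as fewer peaks lie below. Neither list has a Cyp1 peak within 10 kb. In the top 50% the median strongest signal was 79.8. Against all replicate peaks, 98.0% of P450 peaks recurred in both. The optimal list was made from both replicates, and this share was not computed over all optimal peaks. With 100 bases on each side of the summit, 30.6% of windows held TGTTTNC (23.3% of all peaks) and 8.16% AGATAA (30.2%). Chosen after seeing the data, genes whose start is mostly unique sequence (at least 90% of 31-base words) gave 37.3% (19 of 51) within 10 kb and 66.7% within 50 kb, against 42.4% and 70.6% of other genes. In all, 51 alternatives for these shares, differences, percentiles and medians moved them by less than the counting interval or the spread between replicates. Some of these are printed above. Another 26 moved them by more or turned the sign of a difference. For the percentiles, the spread between replicates came from the same values without a replicate that it was used to judge. The sorting of those values is therefore circular. Depth is unknown, so a missing peak does not show absence of EP300.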

Other observations

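Pseudogenes of the family were not members. Of 30 in the annotation, 7 (23.3%) had a summit within 10 kb of their start, and 2 had one within 1 kb. Over protein-coding genes other than members, the shares were 38.2% and 22.3%, counted from any TSS. Other pseudogenes were not counted. Some of these summits also count for members or other genes: that of Cyp2d41-ps (35.6) is a peak of Cyp2d26. The peak of 286 between Cyp4a31 and Cyp4a32 lay 0.114 kb from the start of Cyp4b1-ps2, and a peak of 65.1 lay 0.046 kb from that of Cyp4f41-ps. The peak of 65.1 also lay at the promoter of the protein-coding gene Zfp472, at −0.05 kb from its TSS.

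Of the 62 members without an optimal summit within 10 kb, 44 (71.0%) had a peak there in the list of replicate 1 and 49 (79.0%) in that of replicate 2, against 77.6% and 78.0% of the 13453 other protein-coding genes without such a summit. Both lists had one for 40 members (64.5%) against 68.8% of these other genes, and neither for 9 (14.5%) against 13.3%. Within the highest 26844 peaks of a replicate, 3 members (4.84%) had a peak in replicate 1, against 8.56% of the other genes, and 12 (19.4%) in replicate 2, against 8.59%. Both had one for 2 members (3.23%), Cyp2b10 and Cyp2c29, against 2.80%. No test of these shares was made. For Cyp2c29 the best peaks ranked 22894 in replicate 1 and 21416 in replicate 2, although the nearest summit of the optimal list lies 433 kb from it. At Cyp2c29, 3.30% of the 31-base words within 500 bases of the gene start occur once in the genome, against a median of 93.8% over the P450 genes and 100% over other protein-coding genes. Within 10 kb of the Cyp2c29 TSSs, where these peaks were sought, the share was 57.5%. The part of repetition in the missing summit was not tested. Within 10 kb of the TSSs the median share of such words was 78.7% for members with a summit and 77.2% for members without.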
